A study of Ovis aries with 16 samples.

Results

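Inflammatory cytokines and their receptor antagonists were followed through 6 genes in fetal sheep frontal cortex. They are 4 ligands (IL1B, IL6, TNF and TNFSF13B), 1 receptor chain (IL13RA1) and 1 receptor antagonist (IL1RN). They were found by the gene name in the array files or by the transcript accession matched to its sheep gene. The 6 genes have 8 probes, out of 15008 probes in all and 985 different genes that could be given a name. IL13RA1 and TNFSF13B have 2 probes each, and the probe with the higher mean level stands for the gene. IL1RN is the only receptor antagonist among the 6, since IL13RA1 encodes a chain of the receptor itself.

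RNA from 16 late gestation fetuses was hybridized to 1-colour sheep arrays, 1 array per fetus, to ask how a brief fall in oxygen changes the fetal cortex and whether ketamine, an NMDA receptor blocker used as an anaesthetic, alters that response. Fetuses carried chronic vascular catheters, and the stimulus lasted 30 min and was followed by 23.5 h of recovery, so that cortex was taken at 24 h. Hypoxia control (n = 5) received nitrogen gas through the maternal trachea without ketamine, and hypoxia + ketamine (n = 4) received 3 mg/kg ketamine into a fetal vein shortly before the same stimulus. Normoxia control (n = 3) and normoxia + ketamine (n = 4) went through the same period without nitrogen. Most fetuses were twins and the labels do not say which were siblings, so some arrays may hold siblings. The p-values measure the spread between these fetuses and treat them as independent, which is not known.

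Inflammatory cytokines are secreted signals with which microglia, astrocytes, vessel cells and leukocytes start and spread an inflammatory response. Interleukin 1β and TNF bind receptors that switch on the transcription factor NF-κB, which in turn raises the transcription of more cytokine genes and of its own inhibitor. Interleukin 6 follows from this and acts through a JAK and STAT pathway, while the interleukin 1 receptor antagonist occupies the interleukin 1 receptor without a signal and so limits the response.

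The probes are 60 bases long, and the level of a gene on an array is the level of this stretch only. The probes of IL1B, IL1RN and IL13RA1 are shown, a choice made by hand. Capitals mark the stop codon near the end of the IL1B probe and of the dimmer IL13RA1 probe, read in the frame of the first base. That frame of the IL1RN probe holds a stop codon after 3 bases, which is not marked. The IL1B probe is shown up to its marked codon, over 57 bases. The pair of IL13RA1 probes abut each other without a base between them, the first over bases 1086 to 1145 and the second over bases 1146 to 1205 of the transcript named in the files, and the first is the brighter and stands for the gene.
IL1B: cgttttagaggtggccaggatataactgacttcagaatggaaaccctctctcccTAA
IL13RA1, brighter probe: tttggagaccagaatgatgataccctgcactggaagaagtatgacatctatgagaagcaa
IL13RA1, dimmer probe: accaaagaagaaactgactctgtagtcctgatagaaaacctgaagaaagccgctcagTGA
IL1RN: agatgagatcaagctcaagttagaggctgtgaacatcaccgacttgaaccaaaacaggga

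The level of a probe is given on the log2 scale after background correction and quantile normalization, so that 1 unit is a doubling, and levels are not set against each other between genes. A probe was taken as measured on an array where the scanner software marked it well above background. IL1B met this on 16 of 16 arrays, IL13RA1 on 15, IL6 on 14 and TNF on 10. TNFSF13B met it on 3 arrays and IL1RN on 2, all of them hypoxia control, so that for these genes only a lower bound of a fold change can be given. A gene was called at an unadjusted limma P under 0.05, the threshold of the study's methods. None of the 6 genes passed Benjamini-Hochberg adjustment over all 15008 probes in any comparison, and their limma adjusted P lay at or above 0.507.

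One array has labels that disagree. By its title and its code it is hypoxia control replicate 1, and it is treated as such, but the source name and characteristics describe a normoxic fetus given ketamine. Values without it are given beside some of the results that it moves. Arrays lay on 2 slides, each of which held every group. Over probes, correlations between arrays were 0.984 to 0.996.

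After hypoxia all 6 genes had a higher mean than in normoxia control, and 4 of the 6 were called higher, namely TNF, TNFSF13B, IL13RA1 and IL1RN. TNFSF13B and IL1RN were well above background in hypoxia control alone. Of the 4 genes measured in every group 2 were called, TNF and IL13RA1. Over all probes 3.34% were called higher. The median log2 difference of the 6 genes was 0.43, or 0.36 with TNFSF13B and IL1RN at their lower bounds, against -0.020 over all probes. The direction of all 6 was the same under each of the other normalizations tried. Which fetuses carried the increase differed from gene to gene.

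**Figure D1:**
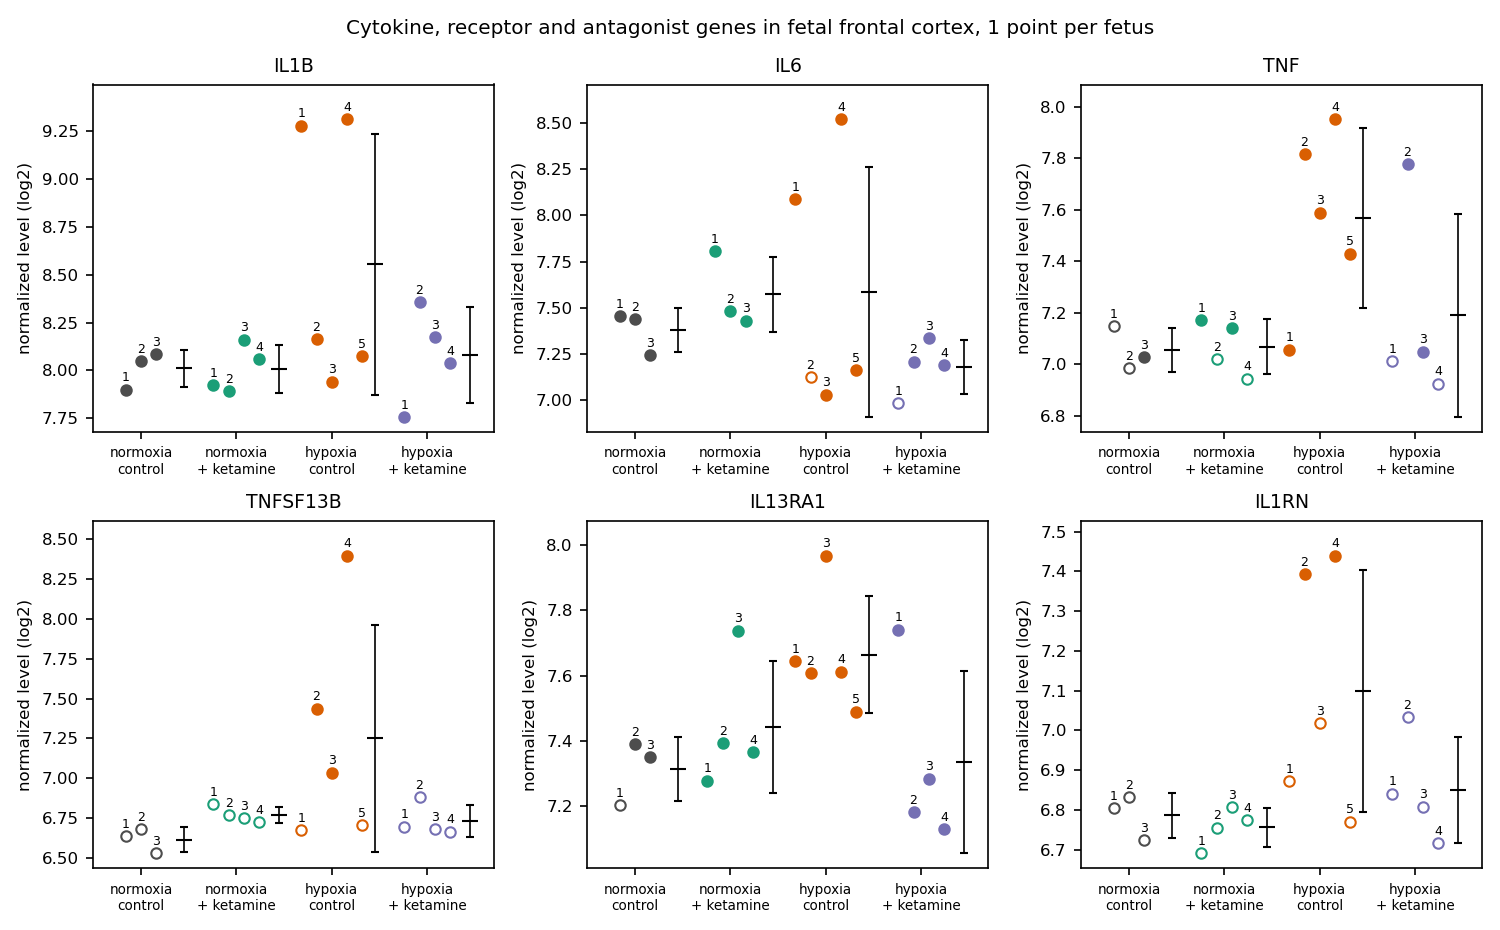
Level of each gene (log2) in each of the 4 groups, 1 point per fetus with its replicate number, filled where the probe was well above background and open where it was not; bars give the mean and SD of a group, and the y axes differ between panels. Hypoxia control replicates 1 and 4 stand high for IL1B and IL6, and replicates 2 and 4 for TNF, TNFSF13B and IL1RN.

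IL1B encodes interleukin 1β, the ligand that starts the cascade. Its level was 7.90, 8.05 and 8.08 in the normoxia control fetuses and 7.92, 7.89, 8.16 and 8.06 with ketamine in normoxia. The hypoxia control levels were 9.28, 8.16, 7.94, 9.31 and 8.08 for replicates 1 to 5, the order kept for every gene here. Replicates 1 and 4 stood more than 1 unit above every normoxia fetus, replicate 2 (8.163) barely passed the highest of them (8.161), and replicates 3 and 5 lay within their range. IL1B is printed in 5 spots per array, and the SD over those spots had a median of 0.093 with a maximum of 0.15. Hypoxia control averaged 8.55 ± 0.68 (SD, n = 5), against 8.01 ± 0.098 (SD, n = 3) for normoxia control. The difference of 0.54 (1.46-fold, standard error 0.28) was not called (limma P = 0.072, adjusted P = 0.66; two-sided exact permutation test, p = 0.21). Without hypoxia control replicate 1 it was 0.36 and without replicate 4 it was 0.35, whereas without replicate 2, 3 or 5 it was called (0.64 to 0.70).

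IL6 encodes interleukin 6. It stood at 7.46, 7.44 and 7.24 in normoxia control and at 7.81, 7.48 and 7.43 in the first 3 normoxia + ketamine fetuses, and the spot of the fourth was marked as an outlier and left out of the fit. Hypoxia control gave 8.09, 7.12, 7.03, 8.52 and 7.16, all but replicate 2 well above background. Replicates 1 and 4, the same fetuses as for IL1B, lay above all normoxia fetuses with a value, and the other 3 lay below all of them. The mean of 7.59 ± 0.68 (SD, n = 5) compares with 7.38 ± 0.12 (SD, n = 3) for normoxia control, a difference of 0.21 with a standard error of 0.28 (limma P = 0.48; exact permutation p = 0.71). It rests on replicates 1 and 4, since the difference was 0.081 without the first and -0.027 without the second, while it was 0.31 to 0.35 without any one of the other 3.

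TNF encodes tumor necrosis factor. In normoxia control its level was 7.15, 6.98 and 7.03, and in normoxia + ketamine it was 7.17, 7.02, 7.14 and 6.94, with 3 of these 7 well above background. The hypoxia control fetuses had 7.06, 7.82, 7.59, 7.95 and 7.43, well above background on 5 of 5 arrays. Replicates 2 to 5 lay above every normoxia fetus, and replicate 1, which was high for IL1B and IL6, lay among them. TNF was called higher after hypoxia, by 0.51 (1.43-fold, with 1 of 3 normoxia control arrays well above background, standard error 0.19, limma P = 0.019, adjusted P = 0.54; two-sided exact permutation test, p = 0.071). The difference was 0.64 without hypoxia control replicate 1. It was no longer called without normoxia control replicate 2 (0.48).

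TNFSF13B encodes BAFF, a TNF family ligand that keeps B cells alive. Its level in hypoxia control was 6.68, 7.44, 7.04, 8.40 and 6.71, and only replicates 2, 3 and 4 were well above background. The 7 normoxia fetuses lay between 6.53 and 6.84, not well above background on any array. The increase was at least 1.29-fold (log2 difference of the measured values 0.63, standard error 0.28, limma P = 0.037, adjusted P = 0.60; exact permutation p = 0.071). A second probe, which shares 20 bases with the first, correlated with it at r = 0.97 over the 16 arrays, and its difference of 0.49 was not called (limma adjusted P = 0.64), but it was well above background on 2 of 5 hypoxia control arrays and on none of the others. The call was also lost without any single normoxia control fetus or hypoxia control replicate 2 (0.59 to 0.67), and without replicate 4 the difference was 0.35 and the bound 1.06-fold. Without normoxia control replicate 2 the bound was 1.21-fold.

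IL13RA1 encodes a chain that binds interleukin 13 and, with the interleukin 4 receptor, forms the receptor through which interleukin 4 and interleukin 13 act outside lymphocytes. Normoxia control had levels of 7.20 (not well above background), 7.39 and 7.35, normoxia + ketamine 7.28, 7.39, 7.74 and 7.37, and hypoxia control 7.64, 7.61, 7.97, 7.61 and 7.49. All 5 hypoxia control fetuses lay above all 3 normoxia control fetuses, which held for 1 of the 6 genes, and 2.11% of all probes showed the same separation in this direction. The difference was 0.35 (1.27-fold, standard error 0.14, limma P = 0.025, adjusted P = 0.57; two-sided exact permutation test, p = 0.036, the smallest that 5 against 3 fetuses allow). Of the 5 fetuses only replicate 3 also exceeded the highest normoxia + ketamine fetus, at 7.74. The call was lost without normoxia control replicate 1 (0.29) or hypoxia control replicate 3 (0.27).

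The neighbouring IL13RA1 probe was well above background on 3 of 16 arrays, 2 of them normoxia + ketamine (7.26 and 7.01) and 1 hypoxia control (7.04), and its difference after hypoxia was 0.13 (standard error 0.11, limma adjusted P = 0.83). Over the 16 arrays the 2 probes correlated at r = 0.25, mostly on values of the dimmer probe not well above background. The mean of the dimmer probe was 6.95 in normoxia + ketamine and 6.87 in hypoxia control. With no normoxia control array among the 3, the dimmer probe cannot check the change after hypoxia, and it does not back the brighter one. The values for IL13RA1 in what follows are those of the brighter probe, except in the counts made with second probes.

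IL1RN encodes the interleukin 1 receptor antagonist, the natural brake on IL1B. Its level in hypoxia control was 6.87, 7.39, 7.02, 7.44 and 6.77, and replicates 2 and 4 were well above background. In normoxia control it was 6.80, 6.83 and 6.72 and in normoxia + ketamine 6.69, 6.76, 6.81 and 6.77, with no array well above background. Replicates 2 and 4 lay above all 7 normoxia fetuses, and the values of the other 3 have no order against them. The increase was at least 1.12-fold (log2 difference of the measured values 0.31, standard error 0.13, limma P = 0.031, adjusted P = 0.59; exact permutation p = 0.11). It was no longer called without normoxia control replicate 1 or 3 or hypoxia control replicate 2 or 4, where the difference was 0.23 to 0.32. The bound was 1.07-fold without hypoxia control replicate 2 and 1.06-fold without replicate 4. It was 1.19-fold without normoxia control replicate 1 and 1.09-fold without normoxia control replicate 2 or 3.

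Hypoxia control fetuses thus differed in which genes were high, counting a gene in a fetus only where its probe was well above background. For IL6, normoxia + ketamine replicate 4 had no value and is not counted. Replicate 4 of hypoxia control exceeded every normoxia fetus with a value in 5 of the 6 genes. Replicate 1 did so in 2, IL1B and IL6, and its TNF level was 0.0027 above the normoxia control mean. Replicate 2 did so in 4 (IL1B, TNF, TNFSF13B and IL1RN) and replicate 3 in 3 (TNF, TNFSF13B and IL13RA1). Replicate 5 exceeded them in TNF only.

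**Figure D2:**
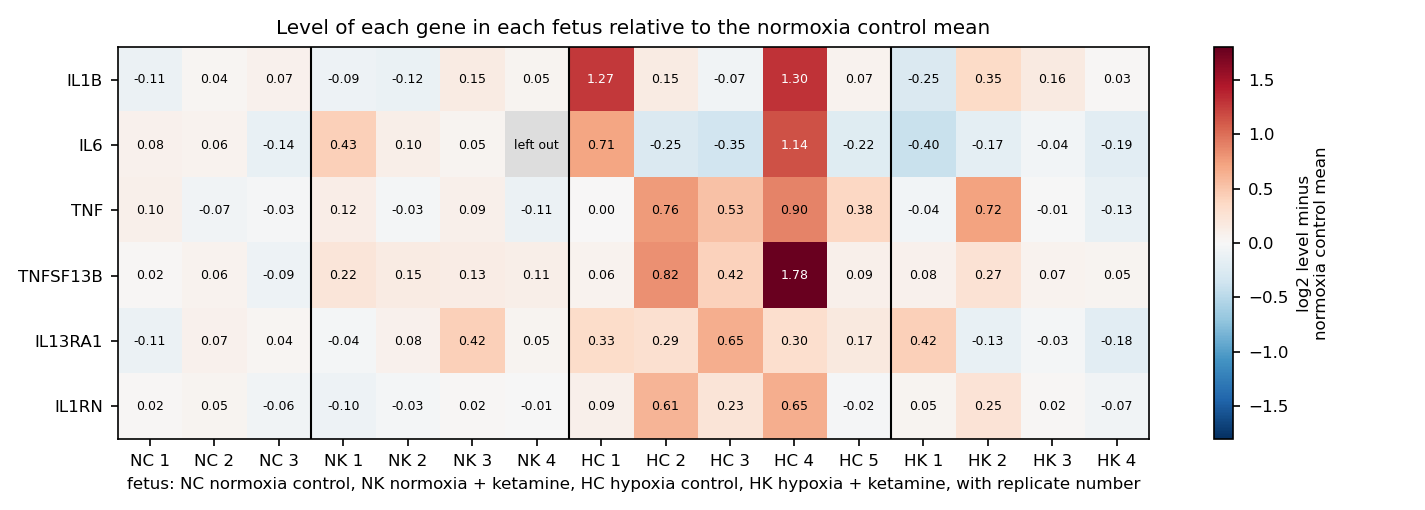
Level of each gene in each of the 16 fetuses minus the normoxia control mean (log2), with colour and printed value giving the same quantity. Among the hypoxia control fetuses, IL1B and IL6 are high in replicates 1 and 4, whereas TNF, TNFSF13B and IL1RN are high in replicates 2 and 4.

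Across the 16 arrays IL1B followed IL6 (Pearson r = 0.80, or 0.62 without hypoxia control replicate 4), and TNF, TNFSF13B and IL1RN followed each other (r = 0.79 to 0.89, and 0.79 to 0.89 without that array). IL1B and TNF were less alike (r = 0.40, and 0.064 without that array). These correlations share the group differences and the same arrays, those of TNFSF13B and IL1RN rest mostly on arrays not well above background, and all are descriptions only.

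The named gene closest to each of the 6 was sought among 719 other named genes well above background on at least 8 arrays. For IL1B these were CXCL8, the neutrophil chemokine interleukin 8 (r = 0.94), the matricellular gene CCN1 (0.93) and the AP-1 gene JUNB (0.89). CXCL8 stood at 10.68 and 11.07 in hypoxia control replicates 1 and 4 and between 6.90 and 8.00 in all other fetuses. IL6 was closest to the ion transport regulator FXYD6 (r = 0.84), CXCL8 (0.79) and JUNB (0.75). Without hypoxia control replicate 4 these were 0.64, 0.57 and 0.59. For TNF they were PSME2 (r = 0.95) and PSMB8 (0.88), a proteasome activator subunit and an immunoproteasome subunit, and the lymphocyte surface gene CD5 (0.87).

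TNFSF13B was closest to the TNF receptor family gene CD40 (r = 0.98), the interferon-induced gene MX2 (0.96) and the toll-like receptor adaptor MYD88 (0.93, but 0.58 without hypoxia control replicate 4). IL1RN was closest to PSME2 (r = 0.94), the death receptor FAS (0.93) and MX2 (0.91). MX2 reached 12.75 and 14.62 in hypoxia control replicates 2 and 4, against 8.96 in replicate 1. IL13RA1 stood apart, with the cell cycle kinase CDK2 (r = 0.89), VEGFA (0.78) and a probe the files name pgc1 (0.78) as its closest.

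**Figure D3:**
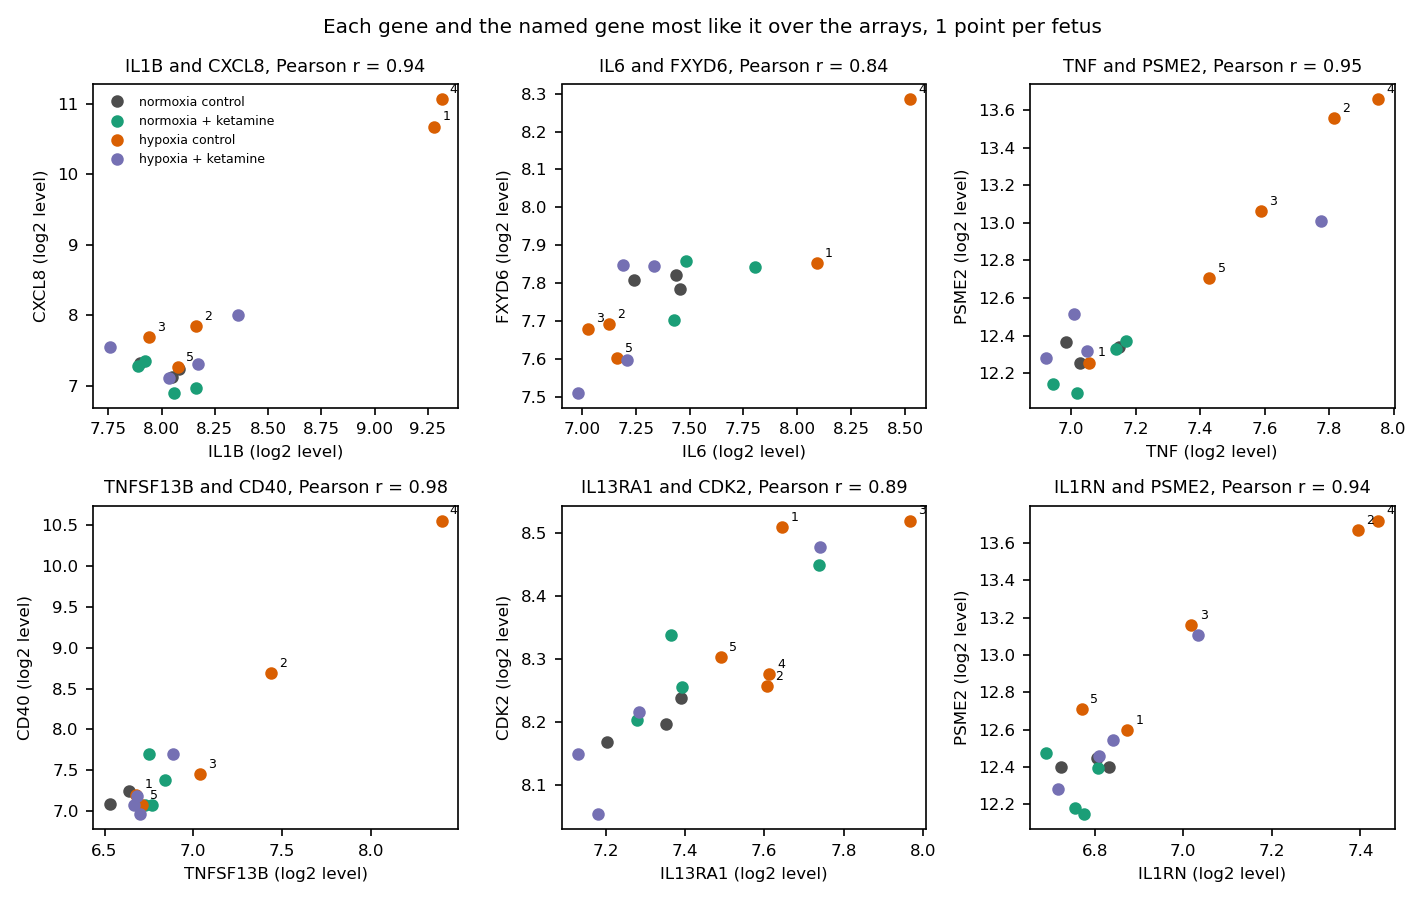
Level of each gene (x axis, log2) against the named gene most like it over the arrays (y axis, log2), 1 point per fetus coloured by group, with replicate numbers beside the hypoxia control fetuses. The points for IL1B and CXCL8 are set apart by hypoxia control replicates 1 and 4, and those for IL1RN and PSME2 by replicates 2 and 4. For TNF and PSME2 hypoxia control replicates 2 and 4 are highest, with hypoxia + ketamine replicate 2 close below them for TNF.

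Ketamine before hypoxia was compared with hypoxia control. All 6 genes had a lower mean with ketamine (IL1RN except under 1 other normalization, where it was 0.076 beside an all-probe median of 0.21), and only IL13RA1 was called lower, while 3.56% of all probes were called lower. The median difference was -0.39, against 0.018 over all probes, and -0.37 with TNFSF13B and IL1RN at their bounds. The hypoxia control arrays enter this comparison and the one after hypoxia alike, so the values of the 2 comparisons are not independent. No gene of the 6 had groups that did not overlap, against 0.566% of all probes in this direction.

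IL13RA1 was 7.74, 7.18, 7.28 and 7.13 in hypoxia + ketamine. Replicate 1 lay within the hypoxia control range, and the other 3 lay below all 5 hypoxia control fetuses. The difference was -0.33 (0.80-fold, standard error 0.13, limma P = 0.022, adjusted P = 0.51; two-sided exact permutation test, p = 0.079). The call was lost without hypoxia control replicate 3 (-0.25), hypoxia + ketamine replicate 2 (-0.28) or replicate 4 (-0.26). The dimmer probe was well above background on no hypoxia + ketamine array, and its difference is not given.

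TNF with ketamine before hypoxia was 7.01, 7.78, 7.05 and 6.92, with replicates 2 and 3 alone well above background. Replicate 2 lay among the higher hypoxia control fetuses and replicate 3 close to the lowest of them, replicate 1 (7.06). The difference of -0.38 (standard error 0.18, 95% confidence interval -0.76 to 0.0041) was not called (limma P = 0.052; exact permutation p = 0.16), but it was called without hypoxia control replicate 1 (-0.51) or without hypoxia + ketamine replicate 2 (-0.57).

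IL1B with ketamine before hypoxia was 7.76, 8.36, 8.17 and 8.04, and none of these fetuses reached the level of hypoxia control replicates 1 and 4. The difference was -0.47 (standard error 0.26, limma P = 0.086; exact permutation p = 0.32), and it was -0.29 without hypoxia control replicate 1 and -0.28 without replicate 4. Without hypoxia control replicate 3 or 5 it was called (-0.63 and -0.59). IL6 was 6.98, 7.21, 7.34 and 7.19, near the 3 lower hypoxia control fetuses and below the others. Its difference was -0.41 (standard error 0.26, limma P = 0.14; exact permutation p = 0.44), and it was -0.28 without hypoxia control replicate 1 and -0.17 without replicate 4.

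TNFSF13B with ketamine was 6.70, 6.88, 6.68 and 6.67, and IL1RN was 6.84, 7.03, 6.81 and 6.72, none of them well above background. Hypoxia control exceeded these by at least 1.29-fold for TNFSF13B (log2 difference of the measured values with ketamine minus hypoxia control -0.52, limma adjusted P = 0.57) and at least 1.14-fold for IL1RN (-0.25, limma adjusted P = 0.57). Neither was called. Without hypoxia control replicate 1 both were called, at -0.66 and -0.31, as they were without replicate 5 (-0.65 and -0.33). IL1RN was also called without hypoxia + ketamine replicate 2 (-0.31). Without hypoxia control replicate 4 the differences were smaller, at -0.23 for TNFSF13B and -0.16 for IL1RN, neither was called, and the bounds were 1.06-fold and 1.07-fold. The IL1RN bound was 1.08-fold without replicate 2. With replicate 1 of hypoxia control moved to normoxia + ketamine, as its other labels read, 4 of the 6 genes were called lower with ketamine before hypoxia and 4 were still called higher after hypoxia.

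**Figure D4:**
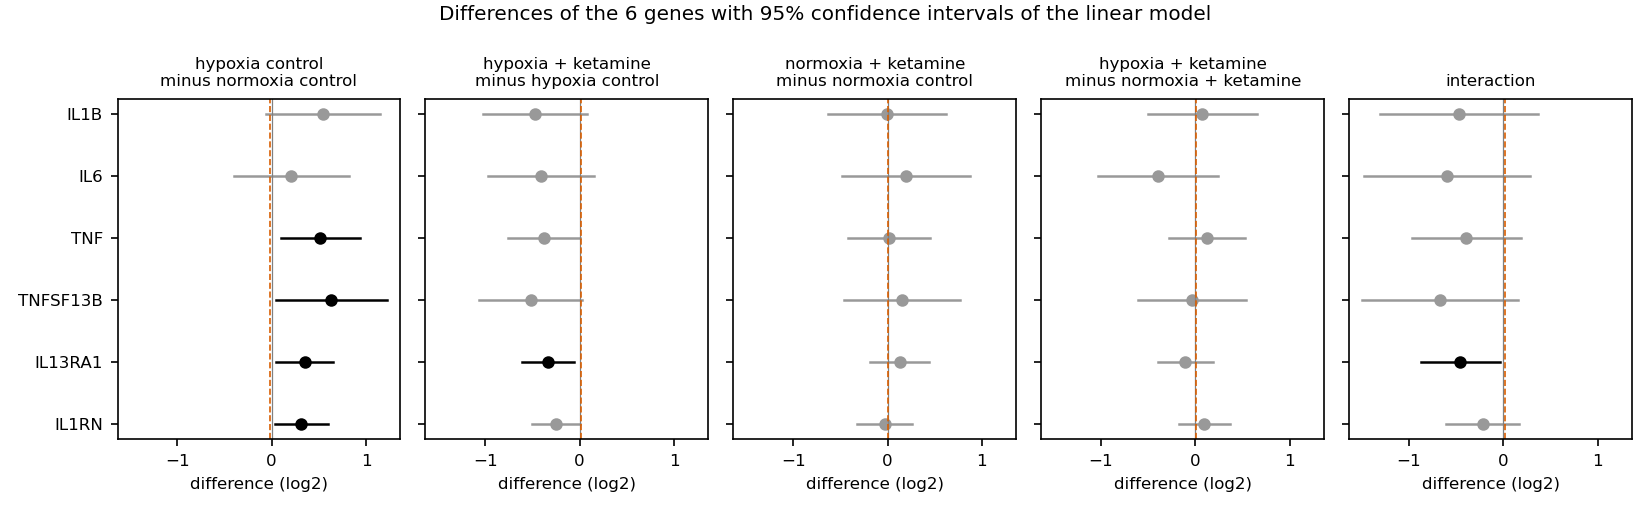
Difference of each gene (log2) with its 95% confidence interval in the 4 comparisons and the interaction, black where limma's unadjusted P was under 0.05 and grey otherwise; the dashed line is the median over all probes. The 6 points lie right of 0 after hypoxia and left of 0 for ketamine before hypoxia, and 4 and 1 of them are black. In the other comparisons the points of TNFSF13B and IL1RN rest on groups with no array well above background. In the interaction only hypoxia control has such arrays for these genes.

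In normoxia TNFSF13B and IL1RN were not well above background on any array of either group, so that 4 of the 6 genes had a measured value to compare. Of these 4 limma called 0 in either direction at an unadjusted P under 0.05, and 0 after adjustment, against 2.31% of all probes, and the differences ran from -0.0021 to 0.19. The 95% confidence interval of the ketamine effect in normoxia was -0.63 to 0.62 for IL1B, -0.49 to 0.87 for IL6, -0.42 to 0.45 for TNF and -0.18 to 0.44 for IL13RA1. Changes of the size seen after hypoxia lie inside it for IL1B, IL6 and IL13RA1, but not for TNF.

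Under ketamine, hypoxia + ketamine was compared with normoxia + ketamine, and the same 4 genes had a measured value in both groups. Of the 4, 0 were called in either direction by limma at an unadjusted P under 0.05, and 0 after adjustment, against 6.86% of all probes. IL6 was lower in all 4 hypoxia + ketamine fetuses (6.98 to 7.34) than in the 3 normoxia + ketamine fetuses with a value (7.43 to 7.81), a separation shown by 1.75% of probes in this direction. Its difference of -0.39 was not called (limma P = 0.21; exact permutation p = 0.057, the smallest that 4 against 3 allow), although limma called it in a fit of these groups alone. The differences of the other 3 genes ran from -0.11 for IL13RA1 to 0.12 for TNF.

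The interaction asks whether the change after hypoxia differed between fetuses with and without ketamine. TNFSF13B and IL1RN were not well above background on any array of 3 of the 4 groups, and no interaction or bound is given for them, although the fit called TNFSF13B without hypoxia control replicate 1 or 5. The interaction was negative for the other 4 genes under quantile normalization, and only IL13RA1 was called (-0.46, 95% confidence interval -0.87 to -0.041, limma adjusted P = 0.76), while 2.41% of all probes were called in this direction. All 4 signs were positive under 1 other normalization (normexp with 75th percentile scaling), in which the median over all probes was 0.51 as well. The IL13RA1 call was lost without any of 6 single fetuses (normoxia control replicate 1, normoxia + ketamine replicate 3, hypoxia control replicate 3 and hypoxia + ketamine replicates 2, 3 and 4). It was -0.60 for IL6 (limma adjusted P = 0.83) and -0.47 for IL1B (limma adjusted P = 0.85), and TNF, at -0.39, was called without hypoxia control replicate 1 (-0.52) or hypoxia + ketamine replicate 2 (-0.59). Without hypoxia control replicate 4 the interaction was nearer 0 for IL6 (-0.37) and IL1B (-0.28), and neither was called. For IL1B it was -0.29 without replicate 1.

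In the order of group means, hypoxia control was highest for each of the 6 genes. For IL1B the other groups stood at 8.08 ± 0.25, 8.01 ± 0.098 and 8.01 ± 0.12 (SD; hypoxia + ketamine, normoxia control and normoxia + ketamine), closer to each other than the SD of the first. TNF followed the order hypoxia control 7.57 ± 0.35, hypoxia + ketamine 7.19 ± 0.39, normoxia + ketamine 7.07 ± 0.11 and normoxia control 7.05 ± 0.085, in which the last 3 overlapped. For IL13RA1 the order was 7.66 ± 0.18, normoxia + ketamine 7.44 ± 0.20, hypoxia + ketamine 7.33 ± 0.28 and normoxia control 7.32 ± 0.098, where neighbours overlapped throughout. IL6 alone had hypoxia + ketamine last, at 7.18 ± 0.15, under normoxia control, and its 2 highest means, hypoxia control and normoxia + ketamine (7.57 ± 0.20, n = 3), lay well within their SD. TNFSF13B averaged 7.25 ± 0.71 in hypoxia control and IL1RN 7.10 ± 0.30, and the means of the other groups are of values not well above background and have no order.

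In the comparisons with hypoxia control each of the 6 differences kept its sign within both slides. After hypoxia they ran from 0.16 (IL6) to 0.75 (IL1B) on slide 1, with 2 against 2 fetuses, and from 0.33 (IL6) to 0.85 (TNFSF13B) on slide 2, with 3 against 1. With ketamine before hypoxia they ran from -0.66 (IL1B) to -0.042 (TNF) on slide 1 and from -0.71 (TNFSF13B) to -0.31 (IL6) on slide 2. TNF differed most between the slides, with -0.042 on slide 1, which held hypoxia control replicate 1 and hypoxia + ketamine replicate 2, and -0.67 on slide 2. With the slide as a term, TNFSF13B was no longer called after hypoxia (0.63, limma P just over the threshold).

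Other genes of the cytokine pathways were taken from hand-written lists, of which 46 genes other than the 6 had a named probe. After hypoxia 5 of the 46 were called higher (CD14, NFKBIA, TLR2, TLR4 and ZFP36) and 1 lower (TGFB1), against 3.34% and 4.64% of all probes, with a median difference of 0.062. Without hypoxia control replicate 1, 3 or 5 the number called higher was 9, and without normoxia control replicate 2 or 3 or hypoxia control replicate 2 or 4 none was called lower. With ketamine before hypoxia 0 were called higher and 6 lower (TLR2, TLR4, CD14, NFKBIA, TNFRSF1A and TGFB2), against 5.49% and 3.56% of all probes, with a median of -0.059. Without hypoxia + ketamine replicate 4 only 3 were called lower.

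NFKBIA encodes the inhibitor that NF-κB induces against itself. Its level was 10.59, 10.80 and 10.52 in normoxia control. Hypoxia control fetuses had 12.75, 11.57, 11.95, 12.72 and 10.87, and those given ketamine before hypoxia 11.80, 11.07, 10.66 and 11.09. All 5 hypoxia control fetuses exceeded normoxia control, with replicates 1 and 4 highest, as for IL1B. Normoxia + ketamine fetuses had 10.69, 10.61, 11.05 and 10.82, and replicate 3 of these lay above hypoxia control replicate 5. The difference was 1.33 after hypoxia (standard error 0.35, limma P = 0.0019, adjusted P = 0.32; exact permutation p = 0.036) and -0.81 with ketamine before hypoxia (limma adjusted P = 0.52), a call lost without hypoxia control replicate 1 or 4 or hypoxia + ketamine replicate 3.

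TLR2 and TLR4 encode receptors for microbial and damage signals, and CD14 their co-receptor. TLR2 was 8.05, 7.91, 8.09, 8.66 and 7.74 in hypoxia control, above the 3 normoxia controls (7.37 to 7.69), and 7.59, 7.68, 7.57 and 7.76 in hypoxia + ketamine. Its differences were 0.55 after hypoxia (limma P = 0.0023; exact permutation p = 0.036) and -0.44 with ketamine before hypoxia (limma P = 0.0056; exact permutation p = 0.032). CD14 was 8.75, 9.60, 9.23, 9.18 and 8.03 in hypoxia control, with replicate 5 among the normoxia controls (7.84 to 8.17). Its differences were 0.95 (limma adjusted P = 0.32) and -0.60 (limma adjusted P = 0.50), the second call lost without hypoxia control replicate 2 or hypoxia + ketamine replicate 4.

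TLR4 rose by 0.32 after hypoxia (limma adjusted P = 0.49) and fell by 0.27 with ketamine before hypoxia (adjusted P = 0.49), where the call was lost without hypoxia + ketamine replicate 4. ZFP36, which encodes a protein that destabilizes cytokine mRNA, rose by 0.27 after hypoxia (limma adjusted P = 0.49), and TGFB1, an anti-inflammatory cytokine, fell by 0.23 (adjusted P = 0.60), a call lost without any of 5 single fetuses. With ketamine before hypoxia TNFRSF1A, the main TNF receptor, was at -0.14 (limma adjusted P = 0.52) and TGFB2 at -0.71 (adjusted P = 0.55), and these calls were lost without any of 4 and 9 single fetuses.

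**Figure D5:**
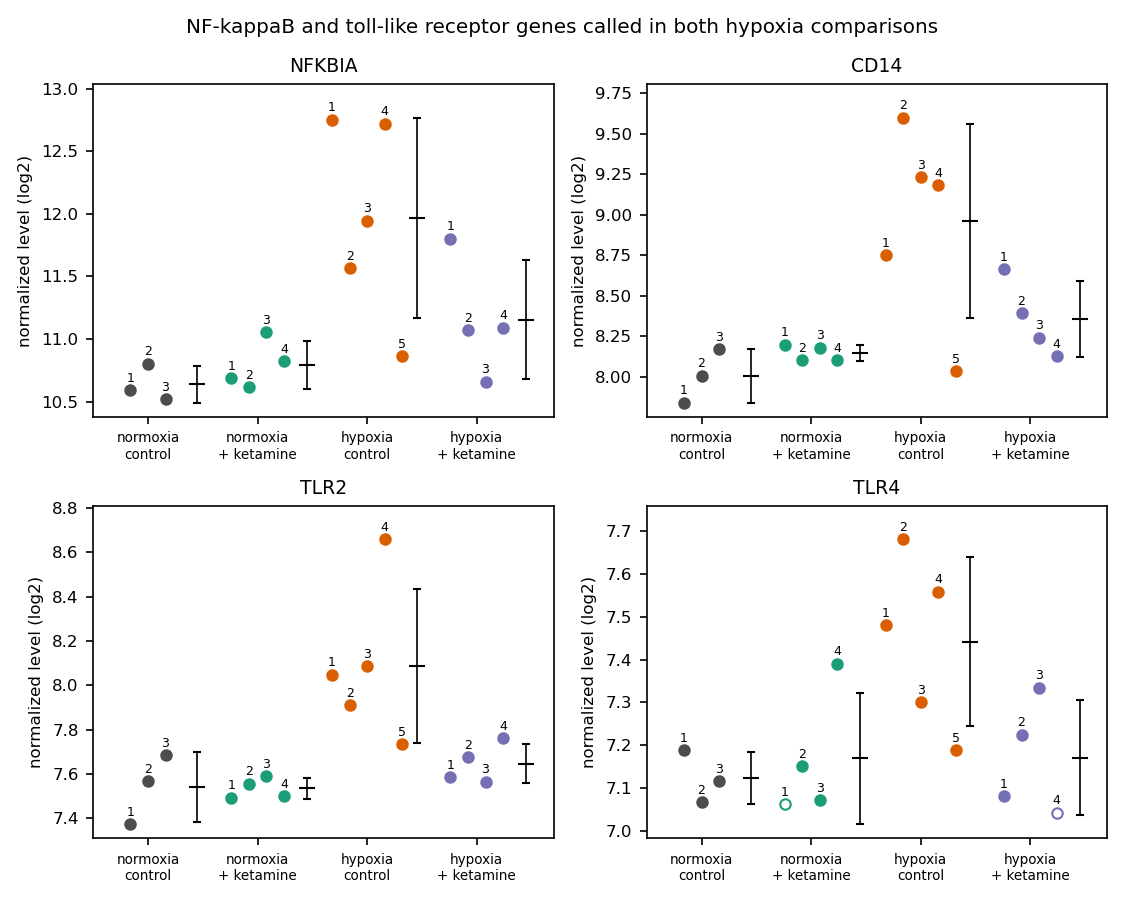
Level (log2) of 4 genes of the NF-κB and toll-like receptor list called in both comparisons with hypoxia control, drawn as for the 6 genes above. NFKBIA is highest in hypoxia control replicates 1 and 4 and CD14 in replicate 2, and replicate 5 is the lowest hypoxia control fetus in all 4 panels.

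Under ketamine 3 of the 46 pathway genes were called higher after hypoxia and 3 lower, among them IL12A (0.36), TLR3 (0.19), KITLG (-0.49), TGFB2 (-0.85) and TRAF3 (-0.24). Over all probes 3.12% were called higher and 3.74% lower in this comparison. Only 1 was called lower without normoxia + ketamine replicate 3 or hypoxia + ketamine replicate 2, and 5 without normoxia + ketamine replicate 4. The calls of TLR3, TGFB2 and TRAF3 were lost without any of 5, 3 and 4 single fetuses. In normoxia 2 were called higher with ketamine, KITLG (0.40) and the dim TLR7, against 0.880% of all probes, and leaving out 1 array gave 1 to 4 (1 without normoxia control replicate 1 or normoxia + ketamine replicate 3, 4 without normoxia + ketamine replicate 2). For the interaction 2 were called higher and 2 lower, with IL12A at 0.41, KITLG at -0.46 and CD14 at -0.74, against 3.94% and 2.41% of all probes. The calls of IL12A, KITLG and CD14 were lost without any of 3, 9 and 12 single fetuses. These interaction counts depended on single arrays, with 0 to 2 higher and 0 to 6 lower (0 higher without normoxia + ketamine replicate 4, 0 lower without hypoxia + ketamine replicate 2, 6 lower without hypoxia control replicate 5). TNFRSF1A turned to 0.16, KITLG under ketamine to 0.068 and TRAF3 to 0.12 with normexp and 75th percentile scaling.

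Because cortex was measured as a whole, fewer cells of a type and less RNA per cell cannot be told apart, and cell type markers are given beside these results. Of 20 microglia and macrophage markers 3 had a named probe (ITGAM, CTSS and CD14, the last also a gene of the pathway lists), and their summed level was 11.18 to 11.40 in normoxia control, 11.23 to 11.51 in normoxia + ketamine, 11.45 to 12.10 in hypoxia control and 11.10 to 11.72 in hypoxia + ketamine. Of 13 endothelial markers 7 were measured, with 11.00 to 11.15, 10.85 to 11.05, 11.19 to 12.41 and 10.90 to 11.45 in the same groups. ICAM1 and SELP were called higher after hypoxia and lower with ketamine before hypoxia, and SELE was not well above background on any array. Of the 7 endothelial genes 4 were higher and 3 lower after hypoxia, with a median difference of 0.0027, so ICAM1 and SELP do not stand for their list. Of the 3 microglia and macrophage genes 2 were higher and 1 lower after hypoxia, and CD14 alone was called. All hypoxia control fetuses lay above all normoxia control fetuses for both lists and above all normoxia + ketamine fetuses for the endothelial list. For the microglia and macrophage list normoxia + ketamine replicate 3, at 11.51, lay above hypoxia control replicate 5, at 11.45. Their part in the cytokine results was not tested.

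The 2 neutrophil markers (CYBB and LTF, of 14) summed to 8.45 to 8.64 in normoxia control, 8.17 to 8.33 in normoxia + ketamine, 8.00 to 9.29 in hypoxia control and 8.19 to 9.52 in hypoxia + ketamine. All normoxia + ketamine fetuses lay below all normoxia control fetuses, and the other pairs of groups overlapped. The 5 lymphocyte markers of 14 summed to 10.49 to 10.67, 10.43 to 10.78, 10.67 to 10.86 and 10.37 to 10.88 in the same order of groups, with CD4 not well above background on any array. CD5 was called higher after hypoxia and lower with ketamine before hypoxia. The median difference of the 5 after hypoxia was 0.022 and no other was called, so CD5 does not stand for its list. Of 9 astrocyte markers 4 were measured, at 15.39 to 15.67, 15.34 to 15.64, 15.29 to 15.97 and 15.09 to 15.66, and GFAP was called higher after hypoxia and lower with ketamine before hypoxia. The median of the summed astrocyte level was 15.47 in normoxia control, 15.48 in hypoxia control and 15.40 in hypoxia + ketamine, so GFAP does not stand for its list. The neuronal list had 1 gene of 14, GRIN1, well above background on every array, at 9.39 to 9.61, 9.58 to 9.97, 8.93 to 9.79 and 8.77 to 9.58. All hypoxia + ketamine fetuses (highest 9.575) lay below all normoxia + ketamine fetuses (lowest 9.582), a separation shown by 1.75% of all probes in this direction. GRIN1 was called lower in this comparison (-0.63), as were 3.74% of all probes, and for the interaction (-0.63), as were 2.41%. The red blood cell genes HBB and AHSP, the second called higher after hypoxia, summed to 13.35 to 14.78, 13.68 to 14.88, 13.22 to 15.95 and 12.70 to 14.67, and the 4 measured choroid plexus genes to 13.42 to 16.33, 13.14 to 14.67, 13.21 to 15.09 and 12.65 to 14.06. Of the choroid plexus genes TTR was called lower after hypoxia.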

How the data were processed

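The authors labelled RNA with cyanine 3, hybridized 1-colour Agilent sheep arrays and deposited, per the file headers, spot intensity values from Feature Extraction 10.1.1.1 (the study's methods name another version), not yet normalized between arrays. The authors' deposited log2 values, already background corrected and quantile normalized (R 2.15.1 and limma in the submitters' processing notes), were an alternative only. The members and gene lists were chosen with earlier results of these data known. In R 4.3.3 with limma 3.58.1, mean spot signals were corrected with normexp (offset 50) on the local background, 536 control spots and 222 outlier spots were left out, arrays were quantile normalized, and spots of a probe were averaged. limma's moderated linear model over 4 groups gave each comparison and the interaction, with Benjamini-Hochberg adjustment over 15008 probes. Two-sided exact permutation tests doubled the smaller tail, and 24 were made on the 6 genes. A lower bound sets a dim group, on each array, at the higher of the probe's own value and the lowest signal of any probe well above background. It bounds the difference between the means of these arrays and carries no sampling error. That lowest signal was 5.72 on normoxia control replicate 2 and 5.94 on hypoxia + ketamine replicate 3, so the own values of TNFSF13B and IL1RN were used there. Besides the 6 genes, the text names up to 6 pathway genes per comparison that were called and well above background on every array of a compared group, and the 3 most correlated named genes. TLR7 and the single cell type markers fall outside this rule and were named after their values were seen. Between 69.2 and 76.9% of spots were well above background, and precision is limited by how many arrays there are. The model was tested on simulated data. Alternatives were other corrections and scalings, a filter on dim probes, slide and replicate blocks, fewer groups, array weights, the other label of hypoxia control replicate 1, second probes, the authors' values and each array left out.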

Additional observations from a re-analysis of the deposited data

Results flagged for a closer look

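In hypoxia + ketamine, replicate 2 lay far from the other 3 fetuses for TNF, at a log2 level of 7.78 against 7.05 for the next (gap 0.85 of the group's range), and for TNFSF13B, at 6.88 against 6.70 (gap 0.85 of the range), where no array of the group was well above background. These are the 2 outlying values among 17 groups examined, and chance gives about 1 in 20 groups. The change of IL13RA1 after hypoxia differed between fetuses without and with ketamine at limma's unadjusted threshold, with an interaction of -0.46 (limma adjusted P = 0.76), for the brighter of its probes. The dimmer one was well above background on 3 of 16 arrays, and it enters only the counts made with second probes.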

How the results depend on the processing

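The 4 genes called higher after hypoxia became 2 with the authors' processed values, with a filter on dim probes (which left 4 of the 6 in the test), with a fit of the compared groups alone and with the second probe of a gene, and 0 with normexp and 75th percentile scaling or after Benjamini-Hochberg adjustment. The 1 gene called lower with ketamine before hypoxia became 2 with a normexp offset of 10, 4 on the scanner-processed signal scaled to the 75th percentile, 4 with array weights, 4 with hypoxia control replicate 1 moved to its other label, and 0 with normexp and 75th percentile scaling, with the second probe or after adjustment. The 1 called interaction became 3 with that other label and 0 with the authors' values, normexp and 75th percentile scaling, the second probe or adjustment. With only the groups compared, 1 gene each was called with ketamine in normoxia (TNFSF13B, not well above background) and after hypoxia under ketamine (IL6), against 0. Leaving out 1 array at a time gave 1 to 5 genes after hypoxia (1 without normoxia control replicate 1), 0 to 4 with ketamine before hypoxia (0 without hypoxia + ketamine replicate 4, 4 without hypoxia control replicate 1 or 5), 0 to 3 for the interaction (3 without hypoxia control replicate 1) and 0 to 0 for the other comparisons. With the replicate number as a block, 3 genes were called lower with ketamine before hypoxia (TNFSF13B and IL1RN besides IL13RA1) and the other counts of the 6 genes did not change. Of the 46 pathway genes, the 5 called higher after hypoxia became 9 on the scanner-processed signal, with array weights or with the other label and 3 with normexp and 75th percentile scaling. The 6 called lower with ketamine before hypoxia became 1 with that scaling and 2 with a fit of the compared groups alone, and the 2 lower interactions became 6 on the scanner-processed signal, with array weights or with the block. The numbers were not taken to pair the arrays, since the labels do not say that they do. Same-numbered pairs correlated in their deviations with a median of 0.044 (-0.11 to 0.37, over 21 pairs), against -0.022 (-0.30 to 0.20) over 74 other pairs. These values cannot decide whether the arrays are paired, since the 2 ranges overlap. As a hint of pairing from the data and not from the design, 10 of 16 arrays correlated best with their own number, and the number that chance gives was not computed.

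Normexp with 75th percentile scaling, without quantile normalization, moved the median over all probes by -0.16 after hypoxia, 0.21 with ketamine before hypoxia, -0.30 with ketamine in normoxia, 0.38 after hypoxia under ketamine and 0.51 for the interaction, and probes never above background by up to 1.22. Relative to those medians all 6 genes stayed above after hypoxia and below with ketamine before hypoxia, but for the interaction 2 lay above and 4 below (6 below with quantile normalization), after hypoxia under ketamine 5 above and 1 below (3 and 3), and with ketamine in normoxia 6 below (2). Signs turned there for IL1RN (0.076) and TNFRSF1A (0.16) with ketamine before hypoxia, for IL6 (-0.34), TNF (-0.69), TNFSF13B (-0.64) and IL13RA1 (-0.41) with ketamine in normoxia, for IL6 (0.21), TNFSF13B (0.82), IL13RA1 (0.53), KITLG (0.068) and TRAF3 (0.12) after hypoxia under ketamine, and for the interaction of IL1B (0.048), IL6 (0.17), TNF (0.67), TNFSF13B (0.44), IL13RA1 (0.37), IL1RN (0.88) and KITLG (0.28). The cause was not tested. For TNFSF13B and IL1RN, values outside the comparisons with hypoxia control are of signals not well above background, and counts over 6 genes include them. Ketamine in normoxia, near 0 for IL1B and TNF, turned for IL1B without background correction (0.011), on the scanner-processed signal (0.082), the authors' values (0.0027) and the other label (0.25), for TNF without background correction (-0.050) and on the scanner-processed signal (-0.089), and for TNFSF13B with its second probe (-0.061). After hypoxia under ketamine, signs turned for IL1B with the other label (-0.18) and for TNFSF13B with its second probe (0.076). With 1 array left out, the ranges that crossed 0 were -0.058 to 0.037 (IL1B) and -0.020 to 0.062 (TNF) with ketamine in normoxia, -0.019 to 0.18 (IL1B) and -0.074 to 0.21 (TNF) after hypoxia under ketamine, and -0.027 to 0.35 (IL6) after hypoxia. Keeping the outlier spots, chosen after seeing the data, changed no count. Signal over background limits TNFSF13B, IL1RN and the dimmer IL13RA1 probe, and 3 to 5 fetuses per group limit all tests.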
